A study of Rattus norvegicus with 30 samples.

Results

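The cell cycle and DNA replication genes of the rat ileum were taken by symbol. The rule matched the minichromosome maintenance (Mcm), origin recognition (Orc) and Gins genes, replication factor C and polymerase subunits, Pcna, ribonucleotide reductase, the A, B and E cyclins, Cdk1, several Cdc genes, the Aurora, Bub and Polo-like kinase genes, centromere proteins (Cenp), mitotic kinesins (Kif) and E2F factors. It found 72 genes among the 14557 symbols that had a transcript cluster (the array's unit for 1 transcript region) of their own. All 72 passed the filter on dim genes, among 10918 genes tested in all. Another 7 clusters carried a matching symbol together with other symbols and were not used.

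Ileum was taken from 30 male wild-type Long-Evans rats aged 8 to 10 weeks and kept under specific-pathogen-free conditions, and each rat's RNA was read on an array of its own. There were 5 groups of 6 rats: Roux-en-Y gastric bypass (RYGB), its sham operation (Sham_RYGB), vertical sleeve gastrectomy (VSG), the VSG sham operation with paired feeding (Sham_VSG_PF), and the VSG sham operation alone (Sham_VSG). Per the labels, all rats had liquid diet in place of solid food on the day before surgery and isoflurane anaesthesia; VSG removed about 80% of the stomach, and in the sham operation the stomach was pressed with forceps along that line. The RYGB operation itself and the time from surgery to sampling are not described in the labels. The labels call the rats biological replicates. Values are log2 signals from a robust multi-array average (RMA), on which a difference of 1 is a doubling of signal, and each gene is compared with itself only. The ileal markers Fabp6 (the ileal bile acid binding protein) and Slc10a2 (the ileal bile acid transporter) gave 11.84 to 12.21 and 9.77 to 10.84 over the 30 arrays, and the arrays' median signals lay between 3.10 and 3.25.

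The intestinal lining is renewed from crypts, where stem cells and their transit-amplifying daughters divide, and the absorptive cells that leave the crypt no longer do. A dividing cell first loads the Mcm helicase onto origins with the help of Orc and Cdc6, then opens them with Cdc45 and Gins, copies DNA with polymerases held by the Pcna clamp, and later enters mitosis under Cdk1 and cyclin B. E2F factors drive many of the S phase genes, while many mitotic genes carry CHR elements in their promoters, which are read by the DREAM complex and B-Myb. Dividing B cells in the germinal centres of Peyer's patches use the same machinery.

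By role, 18 of the 72 genes act in origin licensing and the helicase, 10 in polymerases, clamp loading and nucleotide supply, 2 are E2F factors (E2f4 and E2f5), 6 are cyclins and Cdk1, 8 are mitotic kinases and checkpoint genes, 13 are centromere proteins and 7 are mitotic kinesins. The other 8 fit the letters of the rule but have their main roles elsewhere or an uncertain one: Mcm3ap in mRNA export, Cdc73 in transcription elongation, Mcm8 and Mcm9 in recombination repair, Aurkaip1 in the mitochondrial ribosome, Ccna1 in the germ line, Cenpv in microtubule organisation, and Cenpwl1, a gene named for its likeness to Cenpw. Whether the array's probes tell Cenpw and Cenpwl1 apart was not tested, so the signals of both are uncertain. The dimmest of the 72 were Mcm8 (mean 2.53 over the 30 arrays), E2f5 (2.93), Cenpwl1 (3.16) and Ccna1 (3.19). These means lay within or below the arrays' median signals of 3.10 to 3.25, and whether these genes were detected was not tested.

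Promoter letters were searched because these genes are known for shared control. Of the 72 genes, 59 had a RefSeq promoter (250 bases before to 50 after the gene start, build GRCr8), searched on both strands for the E2F words TTTGGCGC, TTTCGCGC, TTTCCCGC and TTTGCCGC, the CHR words TTTGAA and TTCGAA, and CCAAT. E2F words stood in 13 of the 59 promoters (22%), against 3.01% of 11727 promoters of single-symbol genes on the array and 2.25% of all 27457. They stood in 10 of 23 promoters of the licensing, helicase and synthesis genes (43.5%) and in 2 of 30 promoters of the cyclin, Cdk1 and mitotic genes (6.67%). CHR words stood in 7 of those 23 (30.4%) and in 16 of those 30 (53.3%), against 17.9% on the array and 19.5% of all promoters. CCAAT stood in 49.2% of the 59, against 38% and 37.7%. Within the 150 bases before the start the shares were 15.3% for E2F words, 20.3% for CHR words and 35.6% for CCAAT, against 1.77%, 9.06% and 25.1% on the array. A match is a run of letters and not a shown binding site. The E2F and CCAAT matches can overlap, as they do in Mcm7, and in Mcm2 and Mcm6 E2F words on the 2 strands overlap. The 150 bases before the start of 6 genes are shown, 5′ to 3′ on the gene's strand, to set the S phase kind beside the mitotic kind, with any of the words in capitals. They are Mcm2 (chr4:122918095-122918244, minus strand), Mcm6 (chr13:42404353-42404502, minus), Mcm7 (chr12:22163179-22163328, minus), Cdk1 (chr20:19265143-19265292, plus), Ccnb2 (chr8:79981659-79981808, minus) and Cdc20 (chr5:137255800-137255949, minus).
Mcm2: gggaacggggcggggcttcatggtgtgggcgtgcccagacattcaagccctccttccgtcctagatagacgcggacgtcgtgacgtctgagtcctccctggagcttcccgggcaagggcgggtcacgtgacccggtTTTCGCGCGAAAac
Mcm6: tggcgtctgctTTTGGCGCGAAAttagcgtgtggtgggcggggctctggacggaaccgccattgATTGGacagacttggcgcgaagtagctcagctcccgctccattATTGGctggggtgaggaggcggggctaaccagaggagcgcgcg
Mcm7: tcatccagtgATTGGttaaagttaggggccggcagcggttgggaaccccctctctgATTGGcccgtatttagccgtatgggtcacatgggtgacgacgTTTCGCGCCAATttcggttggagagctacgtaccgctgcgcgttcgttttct
Cdk1: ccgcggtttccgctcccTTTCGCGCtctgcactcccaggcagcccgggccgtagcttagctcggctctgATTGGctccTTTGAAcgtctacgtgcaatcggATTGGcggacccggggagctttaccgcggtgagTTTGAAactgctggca
Ccnb2: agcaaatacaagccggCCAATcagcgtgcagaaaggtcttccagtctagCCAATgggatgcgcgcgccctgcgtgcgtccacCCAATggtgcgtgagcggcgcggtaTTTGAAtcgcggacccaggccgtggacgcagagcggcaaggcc
Cdc20: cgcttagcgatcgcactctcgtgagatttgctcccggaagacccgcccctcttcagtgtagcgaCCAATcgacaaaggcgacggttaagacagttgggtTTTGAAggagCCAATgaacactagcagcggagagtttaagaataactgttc

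Marker genes of other cell types differed between arrays, also within groups. Averaged over the 16 measured B and plasma cell genes (of 23 listed), 19 arrays gave 4.02 to 4.77 and the other 11 gave 6.49 to 7.85, with none between. These 11, called the upper range here, were 1 RYGB, 3 Sham_RYGB, 2 VSG, 2 Sham_VSG_PF and 3 Sham_VSG arrays. Fat cell genes (15 of 17 listed) averaged 6.40 to 6.92 in 3 RYGB arrays and 1 VSG array, against 4.26 to 5.19 in the other 26 arrays. In bulk tissue, fewer dividing cells and less of a transcript in each dividing cell cannot be told apart.

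RYGB ileum had lower signals than Sham_RYGB ileum for nearly all of these genes, but no single gene passed the test. Of the 72 genes, 68 had a lower mean in RYGB, where 51.9% of all genes tested had one, and the median log2 difference of the 72 was -0.24, against -0.01 over all genes. None had an adjusted p below 0.05 (limma with Benjamini-Hochberg adjustment; 0.183% of all genes did, 20 genes), and the lowest adjusted p was 0.126. At an unadjusted p below 0.05, 22 of the 72 were lower (30.6%, against 6.32% of all genes) and 0 were higher (against 6.63%). The 64 genes outside the group with roles elsewhere held all 22 and had a median difference of -0.28, with 63 of 64 lower.

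Among licensing and helicase genes all 18 had a lower mean in RYGB and 6 an unadjusted p below 0.05, with a median difference of -0.28. Mcm6, a subunit of the helicase that unwinds DNA, ran from 5.96 through a median of 6.61 to 7.06 in RYGB, and from 6.49 through 7.06 to 7.46 in Sham_RYGB. All 6 RYGB arrays lay below the Sham_RYGB mean, although the groups overlapped. The difference was -0.51 (95% interval -0.91 to -0.10; means 6.55 ± 0.36 and 7.06 ± 0.38, SD; adjusted p = 0.28). Mcm7, another helicase subunit, gave 5.64, 5.87 and 6.35 as lowest, median and highest in RYGB, and 5.93, 6.30 and 6.61 in Sham_RYGB, a difference of -0.42 (adjusted p = 0.257). Mcm2 gave 6.08, 6.20 and 6.51 in RYGB and 6.25, 6.57 and 6.87 in Sham_RYGB, a difference of -0.31 (adjusted p = 0.356). The largest difference of this role was that of Mcm3 (-0.58), whose interval of -1.27 to 0.11 includes 0, since Mcm3 also had the widest spread of the 72 genes, an SD of 0.62 over the 30 arrays. Its second cluster gave -0.69. Cdc45, which joins the helicase to Gins, differed by -0.41 and Orc5, an origin recognition subunit, by -0.33. At the other end stood Mcm10, which helps to start the fork (4.87 ± 0.32 in RYGB and 4.88 ± 0.37 in Sham_RYGB, difference -0.02). Mcm4, another helicase subunit, differed by -0.49.

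Genes of DNA synthesis and nucleotide supply had the lowest median of the roles, -0.41, with all 10 lower and 6 at an unadjusted p below 0.05. Rrm1, the large subunit of ribonucleotide reductase, which makes deoxynucleotides, had the smallest p of the 72. It ran from 6.13 through 6.67 to 7.13 in RYGB, and from 6.84 through 7.22 to 7.63 in Sham_RYGB. Its means were 6.67 ± 0.35 and 7.25 ± 0.32 (SD, 6 rats each), 1.5-fold lower in RYGB, a difference of -0.59 (95% interval -0.90 to -0.27; adjusted p = 0.126 by limma). Rrm2, the small subunit of the same enzyme, gave 7.21, 7.87 and 8.24 in RYGB and 7.67, 7.99 and 8.93 in Sham_RYGB, and its interval of -0.91 to 0.05 around -0.43 includes 0. Pcna, the sliding clamp, gave 8.09, 8.49 and 8.73 in RYGB and 8.54, 8.77 and 9.05 in Sham_RYGB, with all 6 RYGB arrays below the Sham_RYGB mean (difference -0.34, adjusted p = 0.231). The clamp loader subunits Rfc1, Rfc2, Rfc3, Rfc4 and Rfc5 differed by -0.57, -0.56, -0.44, -0.19 and -0.31. Pola2, a subunit of the primase polymerase, was the least different of this role, at -0.18.

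**Figure D1:**
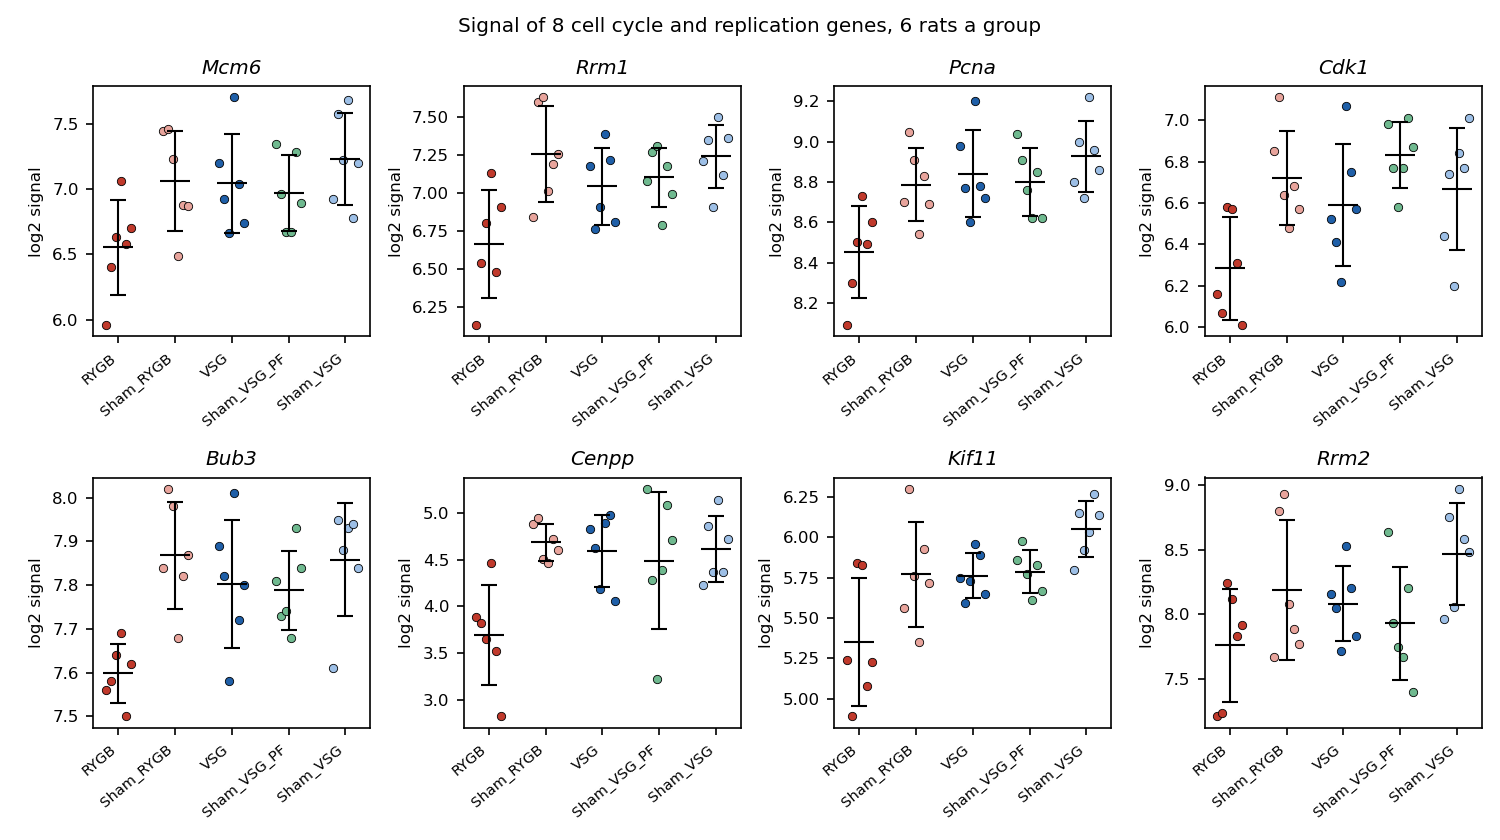
Log2 signal (vertical axis) of 8 genes in each rat, with the 5 groups along the horizontal axis; points are rats, the horizontal mark is the group mean and the bars are the SD over 6 rats. RYGB has the lowest mean of the 5 groups for all 8 genes, and its rats overlap those of Sham_RYGB except for Cenpp.

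All 6 cyclin and Cdk1 genes had lower means in RYGB, with a median difference of -0.30. Cdk1, the kinase that drives mitosis, ran from 6.01 through 6.23 to 6.58 in RYGB, and from 6.48 through 6.66 to 7.11 in Sham_RYGB, a difference of -0.44 (95% interval -0.73 to -0.15; adjusted p = 0.22). Ccne2, a cyclin of S phase entry, differed by -0.35 and its relative Ccne1 by -0.32. The mitotic cyclins Ccnb1, Ccnb2 and Ccna2 differed by -0.28, -0.24 and -0.18, with intervals that include 0. Of the E2F factors, E2f4, which is known mainly as a repressor in resting cells, was 8.46 ± 0.09 in RYGB and 8.42 ± 0.17 in Sham_RYGB (difference 0.04), and E2f5 differed by -0.15. E2f1 was not analysed here.

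The 8 mitotic kinase and checkpoint genes were also all lower in mean, by a median of -0.30. Bub3, a spindle checkpoint subunit, had the tightest values: 7.50, 7.60 and 7.69 as lowest, median and highest in RYGB, against 7.68, 7.86 and 8.02 in Sham_RYGB. The groups overlapped narrowly, and the difference of -0.27 had an interval of -0.43 to -0.11 (adjusted p = 0.148). Bub1b, the checkpoint kinase-like protein BubR1, differed by -0.39. The kinases Aurkb, Bub1 and Plk1 differed by -0.34, -0.32 and -0.16, and Cdc20, which activates the anaphase-promoting complex, by -0.40, all with intervals that reach 0.

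Among the 13 centromere proteins the range was widest. Cenpp, a kinetochore scaffold subunit, was the sole one of the 72 genes whose groups did not overlap (0.247% of all genes did not overlap and were lower, and 0.458% did not overlap and were higher): it ran from 2.82 through 3.74 to 4.47 in RYGB, and from 4.47 through 4.66 to 4.95 in Sham_RYGB, values that meet only after rounding. Its means of 3.69 ± 0.54 and 4.69 ± 0.20 differ by -0.99 (95% interval -1.53 to -0.46), 1.99-fold lower in RYGB, with an adjusted p of 0.126. Cenpk, Cenpu and Cenpw, further kinetochore subunits, differed by -0.37, -0.48 and -0.28. Cenpa, the histone H3 variant that marks centromeres, differed by -0.10, and Cenpf, which loads at the kinetochore in mitosis, by -0.03. Among 7 mitotic kinesins, Kif11, which pushes spindle poles apart, gave 4.89, 5.23 and 5.84 in RYGB and 5.35, 5.74 and 6.30 in Sham_RYGB (difference -0.42, interval -0.72 to -0.12, adjusted p = 0.233). Kif2c, a microtubule depolymerase, differed by -0.48 and Kif18a by -0.02. In the group with roles elsewhere 5 of 8 were lower, none at an unadjusted p below 0.05, and Cenpwl1 (0.22) and Ccna1 (0.21) had the highest differences of all 72.

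**Figure D2:**
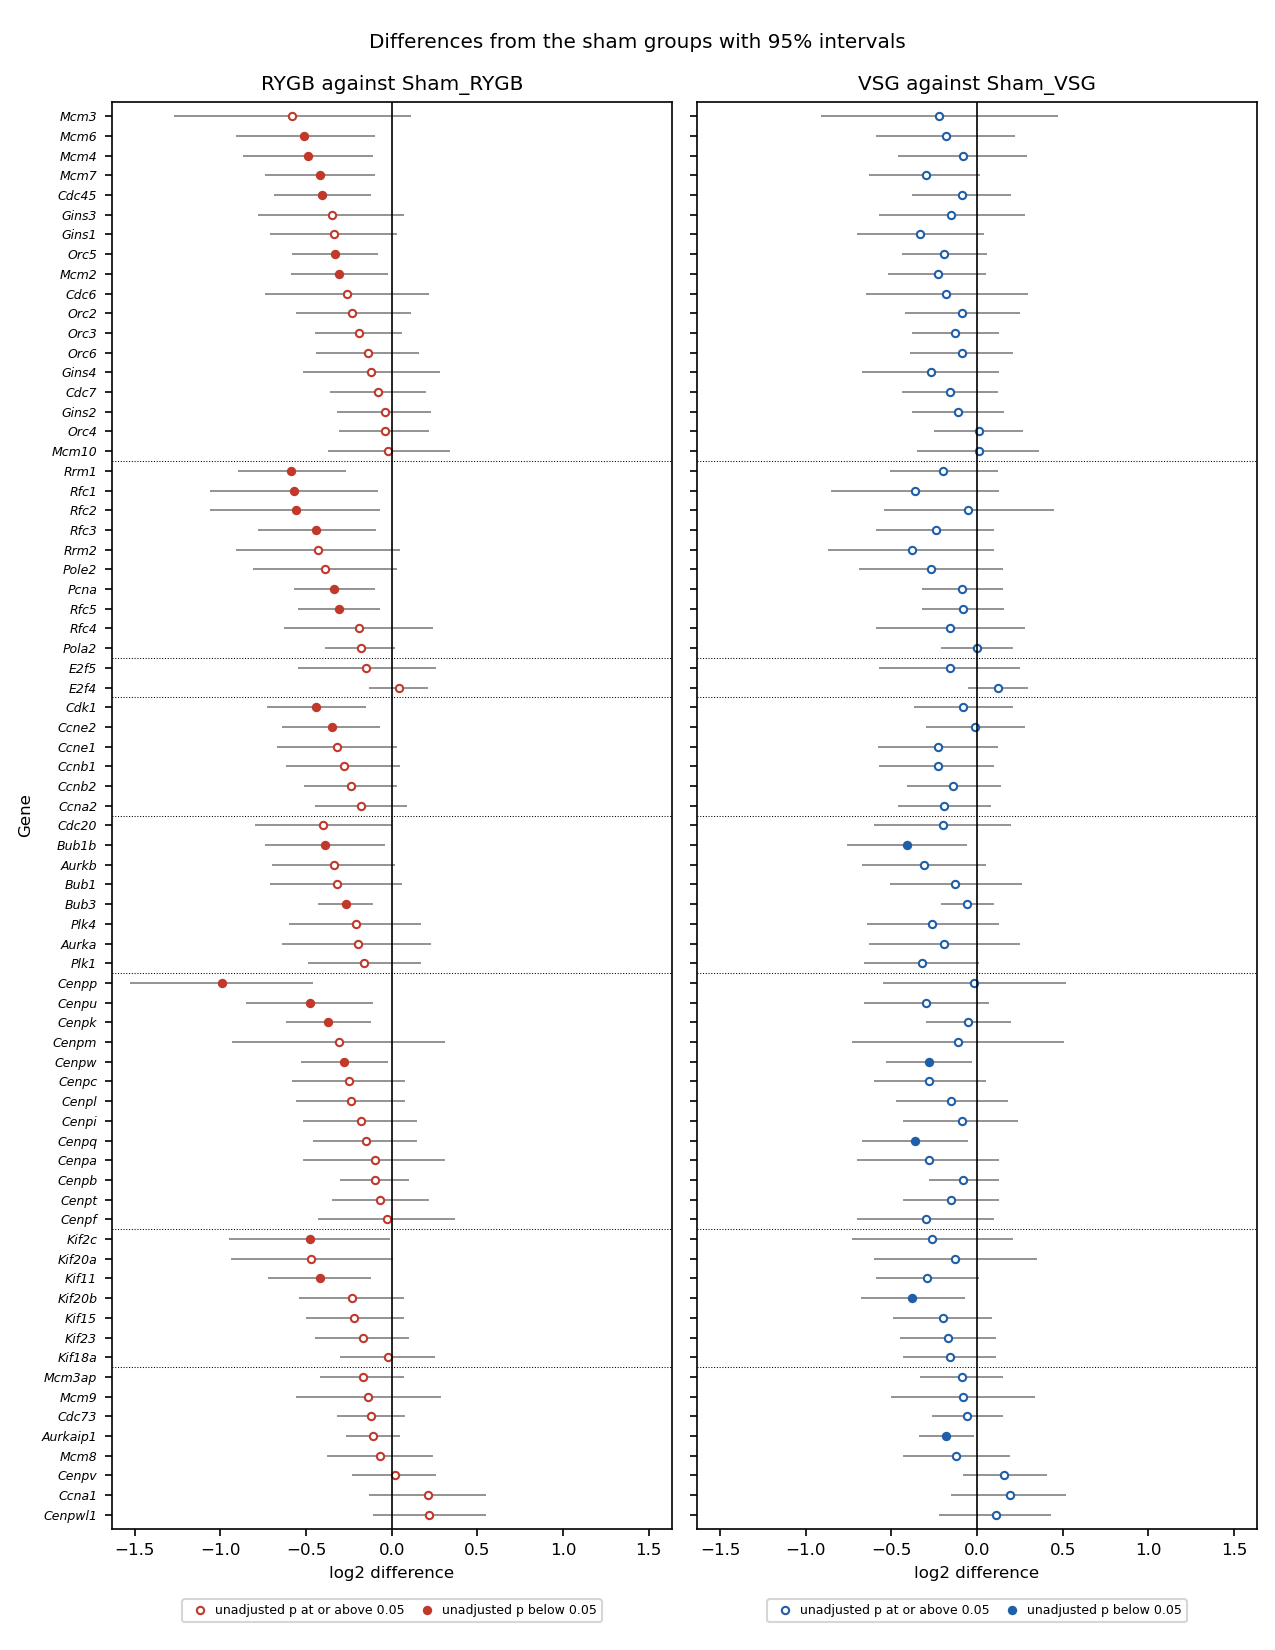
Log2 differences of the 72 genes (points) with 95% intervals (lines), RYGB minus Sham_RYGB on the left and VSG minus Sham_VSG on the right; dotted lines part the roles in the order licensing and helicase, synthesis, E2F factors, cyclins and Cdk1, mitotic kinases, centromere, kinesins and roles elsewhere. On the left 68 points lie below 0 and 22 are filled (unadjusted p below 0.05), on the right 66 and 5.

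The lower signals were not shared evenly by the 6 RYGB rats. When each gene was set against its own median over the 30 arrays, RYGB rats 1, 2, 5 and 6 had 11, 7, 11 and 7 of the 72 genes above it, while RYGB rats 3 and 4 had 41 and 45. Sham_RYGB rats had 10 to 59 (median 35), with rat 4 at 10. VSG rats had 11 to 62 (median 30.5), Sham_VSG_PF rats 19 to 57 (median 43.5) and Sham_VSG rats 24 to 63 (median 53.5). Over all genes tested, between 45.5% and 55.3% lay above their own median in every array. Leaving out 1 rat at a time, the number of the 72 genes lower at an unadjusted p below 0.05 varied. It ran from 16 without RYGB rat 6 (5.68% of all genes) to 31 without RYGB rat 3 (5.85% of all genes). Without RYGB rat 4, Rrm1 (-0.68, adjusted p = 0.0419) and Cenpp (-1.15, adjusted p = 0.0437) passed the threshold (limma). That fit called 41 of all genes tested, against 20 with every rat kept.

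**Figure D3:**
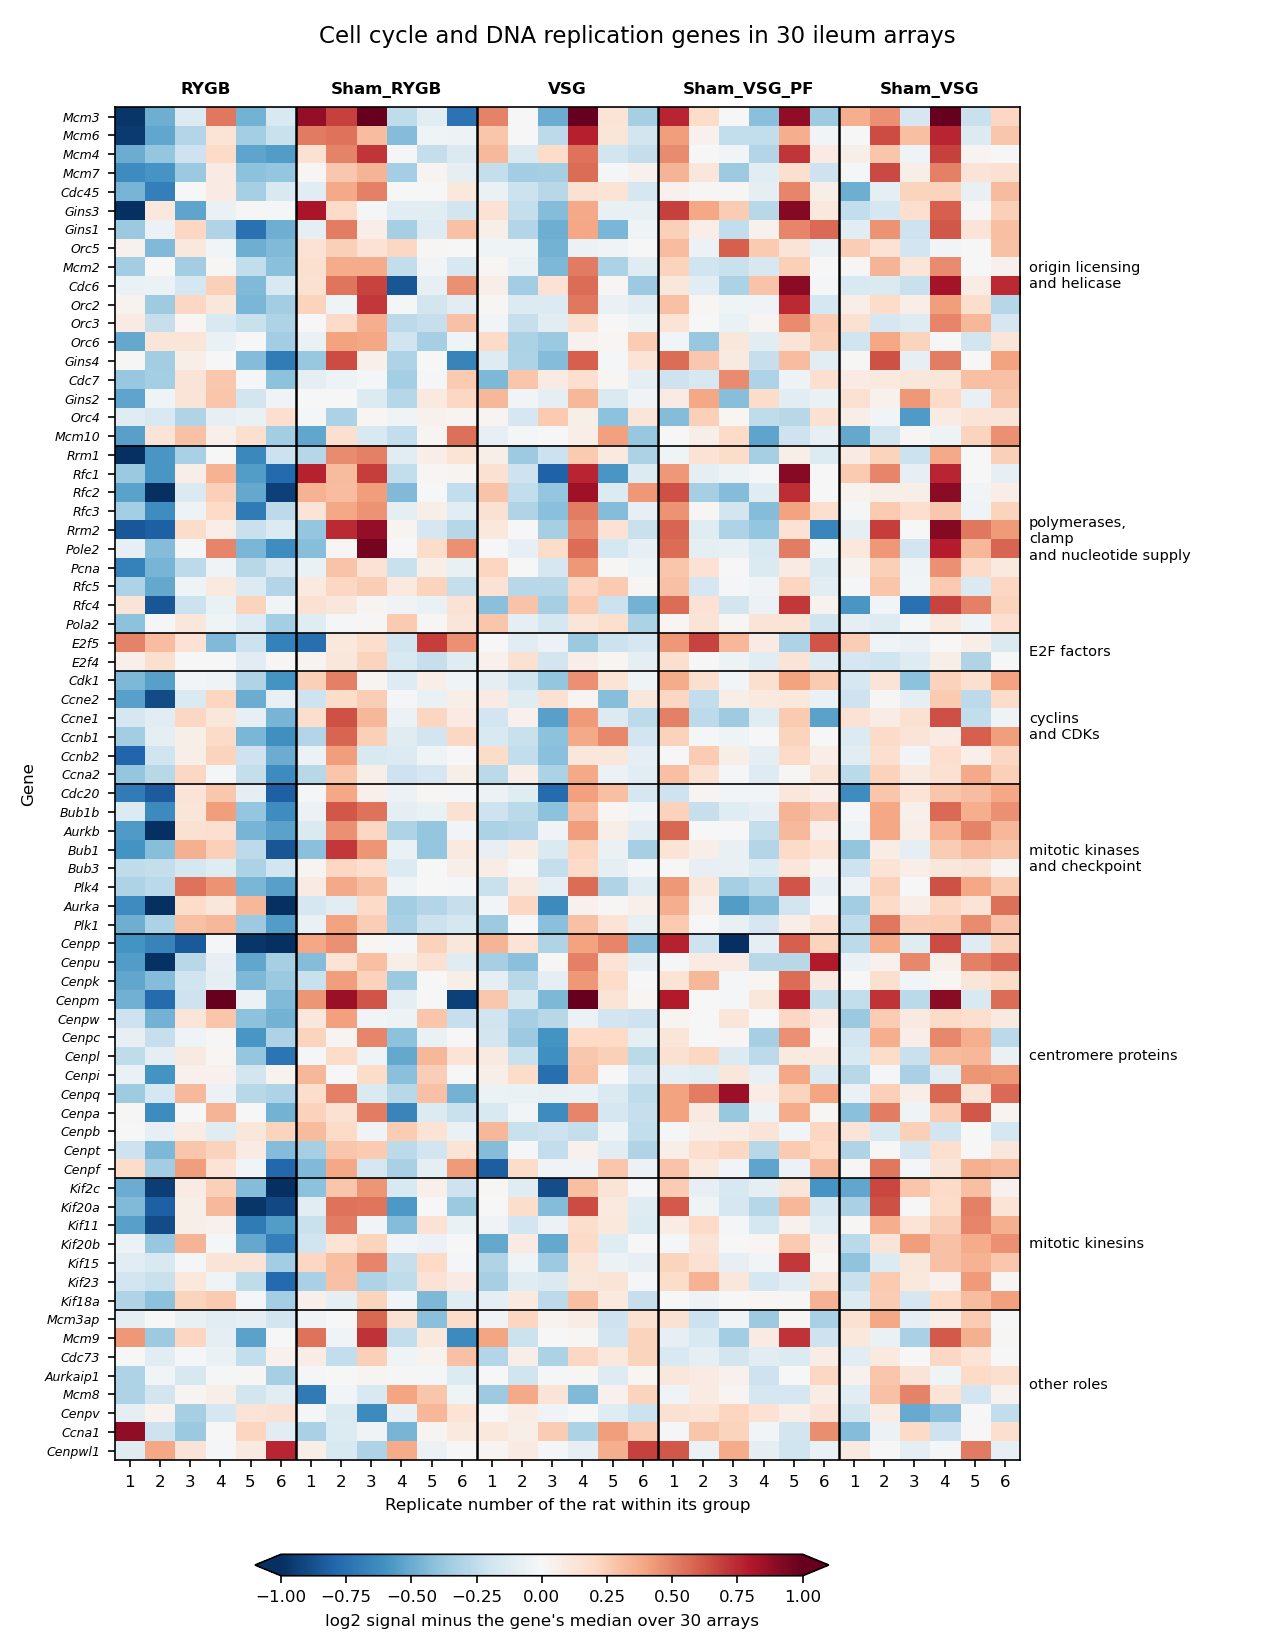
Heat map of the 72 genes (rows, by role) in 30 arrays (columns, by group and rat), coloured by log2 signal minus the gene's median over the 30 arrays, blue for lower and red for higher. RYGB rats 1, 2, 5 and 6 are blue in most rows, and rats such as VSG 4 and Sham_VSG 4, with 62 and 63 genes above their median, are red in most.

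Markers of other cell types moved with this comparison. Over all genes tested, 6.32% were lower and 6.63% higher at an unadjusted p below 0.05, and 0.183% passed the adjusted threshold. B and plasma cell genes averaged 4.76 ± 1.08 in RYGB and 5.88 ± 1.70 in Sham_RYGB (SD, 6 rats each; array means 4.26 to 6.95 and 4.11 to 7.85), with 16 of 16 lower, none at an unadjusted p below 0.05. Fat cell genes averaged 5.79 ± 0.91 in RYGB and 4.68 ± 0.26 in Sham_RYGB (4.79 to 6.79 and 4.26 to 4.94), with 15 of 15 higher, 12 at an unadjusted p below 0.05 and 1 past the adjusted threshold, the lipid droplet gene Cidec (adjusted p = 0.00111). Absorptive enterocyte genes averaged 9.65 ± 0.12 in RYGB and 9.32 ± 0.32 in Sham_RYGB (9.49 to 9.81 and 8.80 to 9.68), with 20 of 20 higher and 7 at an unadjusted p below 0.05. Tuft cell genes averaged 4.24 ± 0.33 in RYGB and 4.87 ± 0.27 in Sham_RYGB, with 8 of 8 lower, 6 at an unadjusted p below 0.05 and 1 past the adjusted threshold, the lipoxygenase gene Alox5 (adjusted p = 0.0348), and a median difference of -0.74. Germinal centre B cell genes averaged 5.53 ± 0.47 in RYGB and 5.99 ± 0.66 in Sham_RYGB, with 10 of 12 lower and a median difference of -0.62. At an unadjusted p below 0.05, 1 of the 12 was lower (8.33%, near the 6.32% of all genes). T and natural killer (NK) cell genes averaged 5.25 ± 0.69 in RYGB and 5.63 ± 0.63 in Sham_RYGB. Of these, 15 of 20 were lower, none at an unadjusted p below 0.05, with a median difference of -0.52. Their mean was 5.81 in RYGB rat 3, which is in the lower B cell range, 6.28 in RYGB rat 4 and 4.56 to 5.34 in the other RYGB rats. Goblet cell genes averaged 9.11 ± 0.07 in RYGB and 8.87 ± 0.11 in Sham_RYGB, with 11 of 12 higher and 3 at an unadjusted p below 0.05. Crypt stem cell genes (7 measured of 19 listed) averaged 5.95 ± 0.17 and 6.04 ± 0.27, with 4 of 7 lower, 3 higher and a median difference of -0.02. At an unadjusted p below 0.05, 2 of the 7 were lower (28.6%, against 6.32% of all genes) and 0 higher. The genes with the smallest p in that list were Lgr5, the crypt base stem cell receptor (-0.55, adjusted p = 0.299), and Ascl2, a stem cell transcription factor (-0.45, adjusted p = 0.286), while Nkd1, a Wnt pathway inhibitor, gave 0.29 and the ephrin receptor Ephb3 0.13.

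With the B and plasma cell, fat cell or enterocyte list allowed for, 57 to 64 of the 72 genes were lower in mean in RYGB, and the counts at the unadjusted threshold were smaller. With the smooth muscle mean as a covariate the count was larger: 68 were lower (median -0.21) and 26 had an unadjusted p below 0.05 (8.22% of all genes). The part of the tuft, goblet, germinal centre B, T and NK, and crypt stem cell lists was not tested. In the 19 arrays of the lower B cell range (5 RYGB and 3 Sham_RYGB), 64 of 72 were lower, 17 at an unadjusted p below 0.05 (4.74% of all genes), with a median of -0.21; there Rrm1 differed by -0.58, Cenpp by -1.06 and Mcm6 by -0.29. With the B and plasma cell mean as a covariate, 64 were lower and 17 had an unadjusted p below 0.05 (5.3% of all genes), with a median of -0.17. Leaving out the 4 arrays in which fat cell genes were high, the median was -0.25 with 63 lower, and 12 had an unadjusted p below 0.05 (4.35% of all genes). With the fat cell mean as a covariate 61 were lower (median -0.19) and 8 had an unadjusted p below 0.05 (3.98% of all genes). With the absorptive enterocyte mean as a covariate, an alternative chosen after seeing the data, 57 were lower, the median was -0.12 and 8 had an unadjusted p below 0.05 (5.07% of all genes).

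Across all 30 arrays, many of these genes were higher where B and plasma cell genes were higher. In a fit with a mean per group and a slope on the B and plasma cell mean, 33 of 72 had a positive slope at an adjusted p below 0.05 (18.8% of all genes) and 1 a negative one (20.9% of all genes), Mcm8 at -0.09. They included 11 of 18 licensing and helicase genes and 8 of 10 synthesis genes, 2 of 6 cyclin and Cdk1 genes, 4 of 8 mitotic kinases, 5 of 13 centromere proteins and 1 of 7 kinesins. The steepest were Mcm3, with a slope of 0.36 per log2 unit of the list mean (95% interval 0.28 to 0.44), Cenpm (0.29), Rfc1 (0.26), Rfc2 (0.23), Mcm4 and Mcm6 (0.19 each). Within each range no slope was called: in the 19 arrays of the lower range 0 of 72 were called (0% of all genes) and 29 were positive, and in the 11 of the upper range 0 were called (1.69% of all genes) and 60 were positive (limma). At an unadjusted p below 0.05, 2 had a positive slope in the lower range (1.76% of all genes) and 16 in the upper range (9.76% of all genes).

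**Figure D4:**
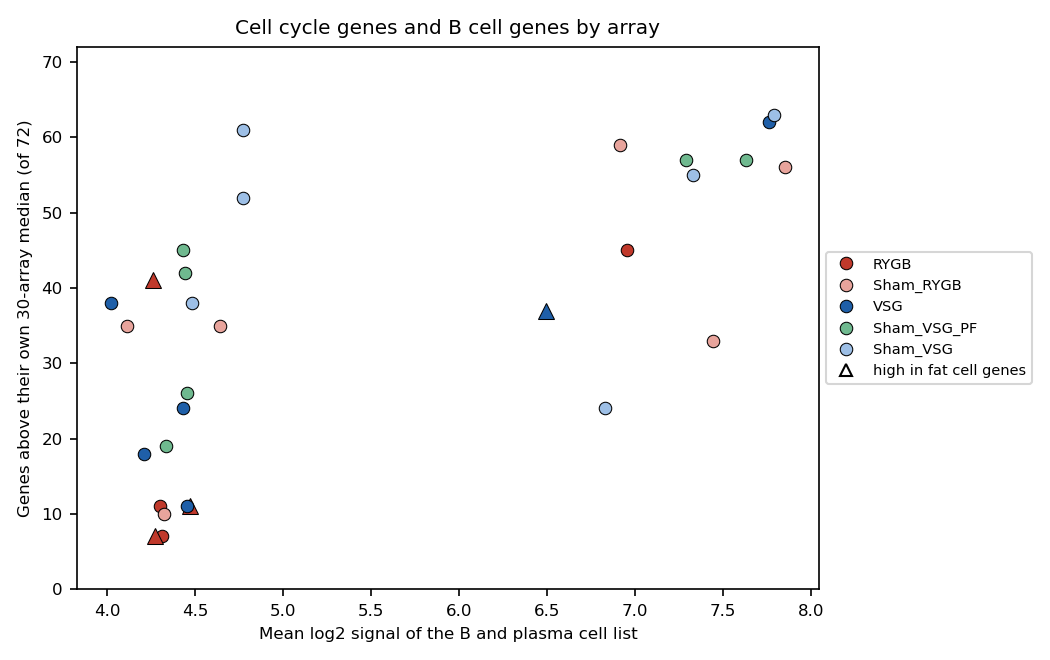
Number of the 72 genes above their own 30-array median (vertical axis) against the mean log2 signal of the B and plasma cell list (horizontal axis), 1 point per array, coloured by group; triangles mark the 4 arrays with fat cell genes at 6.40 or above. The 11 arrays of the upper range have 24 to 63 genes above their median, and the 19 of the lower range 7 to 61, with 4 RYGB arrays at 7 to 11.

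In VSG ileum the same genes were lower in mean than in Sham_VSG ileum, with a smaller median difference: 66 of 72 (56.5% of all genes), with a median of -0.16, against -0.03 over all genes. None passed an adjusted p of 0.05 (limma; 0% of all genes did, and the lowest adjusted p of the 72 was 0.776). At an unadjusted p below 0.05, 5 were lower (6.94%, a share near the 4.04% of all genes) and 0 higher (against 2.02%). Groups did not overlap for 0 of the 72 genes (0.22% of all genes were lower without overlap and 0.055% higher). Kif20b, a kinesin of cell division, gave 4.72, 5.17 and 5.42 as lowest, median and highest in VSG, against 4.96, 5.56 and 5.69 in Sham_VSG (difference -0.38). The others were Bub1b (-0.41), Cenpq (-0.36), Cenpw (-0.28) and Aurkaip1 (-0.18). All 13 centromere proteins, 8 mitotic kinase and checkpoint genes, 7 kinesins and 6 cyclin and Cdk1 genes had lower means in VSG. So did all 10 synthesis genes (median -0.18) and 16 of 18 licensing and helicase genes (median -0.16). Among genes named for RYGB above, Rrm1 differed here by -0.20, Pcna by -0.09, Cdk1 by -0.08, Mcm6 by -0.18 and Cenpp by -0.02. Kif11 was 5.76 ± 0.14 in VSG and 6.05 ± 0.17 in Sham_VSG (difference -0.29, adjusted p = 0.819). Among the mitotic genes, Plk1 differed by -0.32, Aurkb by -0.31, Cenpa by -0.28 and Bub1 by -0.13. Rrm2 differed by -0.38, Mcm2 by -0.23, and the cyclins Ccne1, Ccnb1 and Ccna2 by -0.23, -0.23 and -0.19. The count at the unadjusted threshold moved with single rats. It was 16 without VSG rat 4 (6.29% of all genes) and 10 without Sham_VSG rat 1 (4.2%). It was 2 without VSG rat 3 (3.1% of all genes) or Sham_VSG rat 4 (3.33%), and 3 without VSG rat 2 (3.18%), Sham_VSG rat 2 (3.31%) or Sham_VSG rat 5 (3.39%), shares of the 72 near those of all genes. In the arrays of the lower B cell range (4 VSG and 3 Sham_VSG) it was 14 (5.01% of all genes), with 66 of 72 lower and a median of -0.23. B and plasma cell genes averaged 5.23 ± 1.53 in VSG and 6.00 ± 1.48 in Sham_VSG. T and NK cell genes averaged 5.51 ± 0.60 in VSG and 5.96 ± 0.45 in Sham_VSG, with 19 of 20 lower, none at an unadjusted p below 0.05.

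Set against the pair-fed shams, 53 of 72 genes had a lower mean in VSG (54.7% of all genes), with a median of -0.08, against -0.02 over all genes. None passed (limma; 0% of all genes, lowest adjusted p 0.579), and 5 were lower at an unadjusted p below 0.05 (3.39% of all genes), with 0 higher (2.56%). Cenpq, a kinetochore subunit, gave 3.74, 3.92 and 3.94 in VSG, against 4.07, 4.39 and 4.85 in Sham_VSG_PF, and Cenpw gave 5.08, 5.21 and 5.35, against 5.41, 5.46 and 5.62. Neither gene's groups overlapped, where 0.156% of all genes did not and were lower; the differences were -0.52 and -0.28, with adjusted p of 0.579 and 0.78. The others were E2f5 (-0.46), Orc5 (-0.30) and Cenpt (-0.28), the last a link from centromeric DNA to the outer kinetochore. Of the replication genes, Pcna (0.04), Mcm6 (0.08) and Rrm2 (0.15) were higher in mean in VSG than in Sham_VSG_PF, and Mcm2 (-0.05) and Ccne1 (-0.02) lower. Cdk1 differed by -0.24, Cenpa by -0.20, Aurkb by -0.17, Ccna2 by -0.13, Plk1 by -0.11, Ccnb1 and Bub1 by -0.08 each, and Kif11 by -0.02. The count at the unadjusted threshold was 9 without VSG rat 4 (4.21% of all genes). It was 2 without VSG rat 3 (2.81%) and 3 without Sham_VSG_PF rat 2 (2.94%) or rat 5 (3.55%), shares of the 72 near those of all genes. With the smooth muscle list mean as a covariate it was 20 (9.12% of all genes), and with the enterocyte mean the median turned to 0.03, with 33 of 72 lower. Absorptive enterocyte genes averaged 9.61 ± 0.34 in VSG and 9.37 ± 0.28 in Sham_VSG_PF.

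Paired feeding alone, Sham_VSG_PF against Sham_VSG, gave 51 of 72 lower (53.2% of all genes) with a median of -0.08, and 0 past the adjusted threshold (limma; 0% of all genes). At an unadjusted p below 0.05, 2 of the 72 were lower (2.78%, near the 2.87% of all genes) and 1 higher (1.39%, against 2.46%). Rrm2, lower, gave 7.40, 7.84 and 8.64 in Sham_VSG_PF, against 7.96, 8.53 and 8.97 in Sham_VSG (difference -0.53, adjusted p = 0.907). Mcm3ap was the other lower gene (-0.26), and Cenpv the higher one (0.35). Kif11 (-0.27), Mcm6 (-0.26), Ccne1 and Plk1 (-0.21 each), Mcm2 (-0.18), Ccnb1 (-0.15), Aurkb (-0.14), Pcna (-0.13), Cenpa (-0.09), Ccna2 (-0.06) and Bub1 (-0.04) were lower in mean in Sham_VSG_PF, and Cdk1 (0.16) higher. Smooth muscle genes averaged 8.16 ± 0.29 in Sham_VSG_PF and 7.94 ± 0.21 in Sham_VSG, with 8 of 8 higher and 3 at an unadjusted p below 0.05. With their mean as a covariate the direction turned, to 24 of 72 lower and a median of 0.06, with 0 lower and 7 higher at an unadjusted p below 0.05. In that fit 5.69% of all genes were lower at that threshold, against 2.87% without the covariate. The share of all genes that were higher in that fit is not given here, so the 7 cannot be set against it. Between the 2 sham operations, Sham_RYGB against Sham_VSG had 51 lower (55.5% of all genes), a median of -0.07, and 0 genes at an adjusted (0% of all genes) or an unadjusted p below 0.05 (limma; 3.01% of all genes were lower and 1.69% higher at the unadjusted threshold). The median turned to 0.01, with 33 of 72 lower, under the smooth muscle covariate. The count of 0 lower at the unadjusted threshold was 7 in the lower B cell range (4.82% of all genes), 7 with the enterocyte covariate (4.86%), 5 without Sham_RYGB rat 2 (3.47%) and 4 without Sham_VSG rat 1 (3.51%). The smallest p there were those of Aurkaip1 (-0.15), Kif11 (-0.28) and Gins4 (-0.35), each with an adjusted p of 0.999. Aurkb (-0.30), Plk1 and Rrm2 (-0.28 each), Ccna2 and Cenpa (-0.18 each), Mcm6 (-0.17), Pcna and Ccnb1 (-0.14 each), Mcm2 (-0.08) and Bub1 (-0.01) were lower in mean in Sham_RYGB, and Ccne1 (0.11) and Cdk1 (0.05) higher. The comparisons of VSG and of Sham_VSG_PF with Sham_VSG share the 6 Sham_VSG rats, and both VSG comparisons share the 6 VSG rats.

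**Figure D5:**
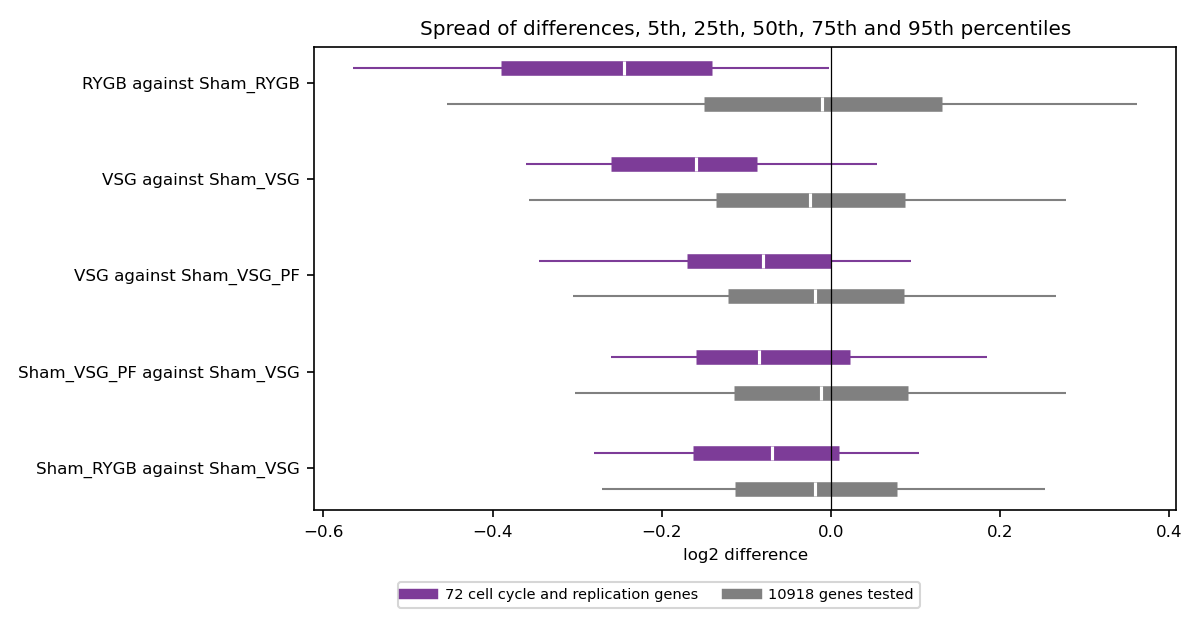
Log2 differences (horizontal axis) of the 72 genes (purple) and of the 10918 genes tested (grey) in 5 comparisons; the thick bar spans the 25th to 75th percentile, the thin line the 5th to 95th, and the white mark is the median. The purple medians are -0.24, -0.16, -0.08, -0.08 and -0.07 from top to bottom, and the grey ones lie between -0.03 and -0.01.

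Whether the RYGB and VSG differences from their own shams were unequal was tested as the difference of the differences. None of the 72 genes passed (limma; 0% of all genes did), and 1 had an unadjusted p below 0.05 and was more negative in RYGB (2.23% of all genes), with 0 more positive (3.49%). It was Cenpp, by -0.98 (95% interval -1.74 to -0.22, adjusted p = 0.844). Leaving out 1 rat at a time, the count of 1 ran up to 5, without RYGB rat 4 (2.45% of all genes). The median over the 72 was -0.08, with 52 negative (47.5% of all genes). In the lower B cell range it turned to 0.03 with 31 negative, and with the enterocyte covariate it was 0 with 34 negative. All 10 synthesis genes were more negative in RYGB, Rrm1 by -0.39 (interval -0.83 to 0.06) and Pcna by -0.25 (-0.58 to 0.08), while 5 of 8 mitotic kinase and checkpoint genes were, with a median of -0.02. Bub3 gave -0.21 (adjusted p = 0.851) and Cenpk -0.32 (adjusted p = 0.877). Cdk1 gave -0.36, Mcm6 -0.32, Bub1 -0.19, Kif11 -0.13, Ccne1 -0.09, Mcm2 -0.07, Rrm2 and Ccnb1 -0.05 each and Aurkb -0.03, against 0.01 for Ccna2, 0.16 for Plk1 and 0.18 for Cenpa. A test for any difference among the 5 groups called 0 of 72 (limma F-test; 0.128% of all genes) and gave 19 at an unadjusted p below 0.05 (10.6% of all genes), with a lowest adjusted p of 0.158.

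Other genes of the pathway, not matched by the rule, were taken from separate lists. In RYGB against Sham_RYGB, 51.9% of all genes were lower, and 6.32% were lower at an unadjusted p below 0.05. Of 30 further S phase genes measured (42 listed), 27 were lower in RYGB than in Sham_RYGB, 7 at an unadjusted p below 0.05, with a median of -0.26. Dtl, which marks licensing factors for destruction in S phase, was 5.25 ± 0.26 in RYGB and 5.75 ± 0.32 in Sham_RYGB (difference -0.51, adjusted p = 0.126), and Pold2, a subunit of DNA polymerase delta, 5.94 ± 0.26 and 6.50 ± 0.25 (difference -0.57, adjusted p = 0.126). Of 39 further mitotic genes (58 listed), 35 were lower and 7 had an unadjusted p below 0.05 (median -0.22), among them Depdc1 (-0.56, adjusted p = 0.15) and Ska3, a kinetochore coupler (-0.44, adjusted p = 0.238). Of 18 G1 regulators and inhibitors (34 listed), 15 were lower with a median of -0.14. Cdkn2b, an inhibitor of the G1 kinases, was higher in mean in RYGB (difference 0.39, adjusted p = 0.358), and Wee1, the kinase that holds Cdk1 inactive, differed by -0.28 (adjusted p = 0.358). None of the 3 lists held a gene past the adjusted threshold. In VSG against Sham_VSG, 27 of the 30 S phase and 36 of the 39 mitotic genes were lower, 2 and 5 of them at an unadjusted p below 0.05, where 56.5% of all genes were lower and 4.04% lower at that threshold.

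Split by their promoter words, the genes had these RYGB differences. The 13 genes with an E2F word had a median of -0.35, with 13 lower, and the 46 without one had a median of -0.24, with 43 lower. With and without a CHR word the medians were -0.27 and -0.26. With CCAAT the median was -0.34 (29 of 29 lower) and without it -0.24 (27 of 30 lower), a gap about as wide as for the E2F words. The 59 genes include some with roles elsewhere, and all of the 59 that were not lower were of that kind. Of the 13 genes with an E2F word, 10 were licensing, helicase or synthesis genes, roles with medians of -0.28 and -0.41. No test was made of these splits, nor of the part that role has in them.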

How the data were processed

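Total RNA from ileum of 30 rats was amplified (Ovation PicoSL WTA System V2), labelled with biotin and read on 1-colour Affymetrix arrays, per the labels. The authors deposited log2 signals; the submitters' processing notes name RMA and version 1.3.0.187 of Affymetrix Expression Console. RMA subtracts background, equalizes the arrays' distributions and summarizes the probes of a transcript cluster. The set of arrays normalized at once is not given in the sources used here, and scan dates and detection calls were not used. Of 36685 clusters, 14824 carried 1 symbol; the brightest cluster of each of 14557 symbols was kept, and genes whose mean was below the 25th percentile (log2 2.33) were left out. Precision is limited by the number of rats.

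The 5 group means were estimated together from the 30 arrays by limma 3.58.1, run under R 4.3.3 (25 residual degrees of freedom, empirical Bayes, two-sided, Benjamini-Hochberg over the 10918 genes, threshold 0.05). The p-values adjust over all genes and none over the 72 alone. The labels do not say whether same-numbered rats belong together, so the replicate number was a block only as an alternative. The scripts were tested on simulated data. The genes, roles and lists were chosen with earlier results of these data known. All 72 genes were counted; 35 were named with values by a rule (the 3 smallest p of each comparison, the largest and smallest RYGB difference of each role, and 13 well-known genes), and others were named after their values were seen. Ranges of list means were split at the widest gap. Alternatives covered normalization, the filter on dim genes, the samples in the fit, array weights, variance moderation, a gene's clusters, cell makeup, the promoter window and leaving out each array. Plots came from matplotlib 3.10.9 (Python 3.11.15).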

Additional observations from a re-analysis of the deposited data

Results flagged for a closer look

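Of 175 sets of 6 values (35 genes in 5 groups), 10 held 1 array that stood apart from the rest of its group by more than Dixon's 95% critical value for 6 values; chance marks about 1 in 20 sets. In Sham_VSG rat 1, Cdc20 gave 5.65 (nearest other value 6.41), Plk1 7.24 (nearest 7.74) and Bub3 7.61 (nearest 7.84), 3 mitotic genes that were all low in this rat, which is in the upper B cell range. In VSG rat 3, Kif2c gave 4.16 (nearest 4.93) and Orc5 4.29 (nearest 4.71), and this rat had 11 of the 72 genes above their own median. Cenpf gave 5.59 in VSG rat 1 (nearest 6.36), 1 of the 4 arrays with high fat cell genes. Cdc20 gave 6.66 in Sham_RYGB rat 2 (nearest 6.32), and Aurkaip1 gave 8.40 in Sham_RYGB rat 6 (nearest 8.52). Kif18a gave 5.65 in Sham_VSG_PF rat 6 (nearest 5.32), and Cenpwl1 gave 3.57 in Sham_VSG rat 5 (nearest 3.14). What set these arrays apart was not tested.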

How the results depend on the processing

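No comparison of group means called any of the 72 genes, with these exceptions. With the smooth muscle list mean as a covariate, RYGB against Sham_RYGB called 2 by limma. They were Rrm1 (-0.56, adjusted p = 0.0462) and Cenpp (-0.93, adjusted p = 0.0365). Over all genes tested that fit called 67, against 20 without the covariate. In VSG against Sham_VSG_PF the same covariate called 1 of the 72 and 48 of all genes, against 0 without it. Leaving out single arrays gave 0 to 2 of the 72 in RYGB against Sham_RYGB. The 2 were called without RYGB rat 4, where 41 of all genes tested were called. At an unadjusted p below 0.05, 22 genes were lower in RYGB (6.32% of all genes). The count was 12 when the 4 arrays with high fat cell genes were left out (4.35% of all genes). It was 8 with the fat cell covariate (3.98%) and 8 with the absorptive enterocyte covariate, chosen after seeing the data (5.07%). When arrays were left out in turn it ran from 16 (5.68%) to 31 (5.85%). With the smooth muscle covariate the count was 26 (8.22% of all genes). The median difference ran from -0.31 to -0.19 when arrays were left out. Slopes on the B and plasma cell mean called 33 genes over all arrays, and 0 within the lower and 0 within the upper range, which hold fewer arrays. CHR words stood in 20.3% of promoters and CCAAT in 35.6% in the shorter window, which has fewer letters. In VSG against Sham_VSG, 5 genes were lower at an unadjusted p below 0.05 (4.04% of all genes). The count was 3 with quantile normalization (2.67%) or the fat cell covariate (3.61%) and 8 with arrays centred on their median (5.05%). It was 9 with the smooth muscle covariate (4.87%), 11 with array weights (6.03%) and 14 in the lower B cell range (5.01%). The 5 lower than in Sham_VSG_PF (3.39%) were 3 of 61 genes with the 50th percentile filter (3.85%). They were 8 with the B and plasma cell covariate (4.94%) and 20 with the smooth muscle covariate (9.12%). In RYGB against Sham_RYGB, quantile normalization gave 20 genes lower at an unadjusted p below 0.05 (5.46% of all genes), a median of -0.19 and 63 of 72 lower. Between same-numbered rats of RYGB and Sham_RYGB, correlations of their deviations ran from -0.57 to 0.24, with 2 of 6 over 0.1 and 0 of 6 rats closest to their own number. In VSG against Sham_VSG they ran from -0.18 to 0.68, with 5 of 6 over 0.1 and 3 of 6 rats closest to their own number, and in VSG against Sham_VSG_PF from -0.52 to 0.33, with 4 of 6 over 0.1. The labels state no pairing and not every pair was over 0.1 in any comparison, so the rats were treated as sharing only a number. With 6 pairs a comparison this cannot exclude a pairing, least of all in VSG against Sham_VSG. With the replicate block, 0 of the 72 were called in RYGB against Sham_RYGB, 23 were lower at an unadjusted p below 0.05 (6.11% of all genes) and the median was -0.24. In VSG against Sham_VSG the block gave 0 called, 5 lower at that threshold (3.84%) and a median of -0.16. Against Sham_VSG_PF it gave 0 called, 5 lower (3.49%) and a median of -0.08.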
